A study of Mus musculus with 12 samples.

Results

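In the bore of a magnet of the kind called LG-HMF, for a high magnetic field with a large gradient, a force acts on the water of a cell and either adds to its weight or takes from it, so that a single magnet offers several apparent gravity levels. The comparison described here set MLO-Y4 cells held at 2-g against MLO-Y4 cells held at 1-g in the same bore, over all genes. Its members were chosen by the treatment label, LG-HMF 2-g (3 arrays) and LG-HMF 1-g (3 arrays), which are 6 of the 12 arrays of the series. MLO-Y4 is an osteocyte-like cell line from mouse long bone, immortalised by a large T antigen transgene under the osteocalcin promoter. All cells were cultured for 48 h, and an object holder brought the plates of the magnet groups to their positions in the bore. The 2-g plate lay where the field was 12 T and the magnetic force pointed down, and the 1-g plate lay at the centre, where the field was 16 T and gave no net force. The other 2 groups, which enter the fit and serve as context, were μ-g (12 T, with the force pointing up) and control (outside the magnet). Gravity level, field strength and place in the bore differed together between 2-g and 1-g and cannot be told apart in this comparison, while 2-g and μ-g shared the field of 12 T. Samples of a group are labelled as biological replicates, and the labels do not say whether they came from separate cultures or magnet runs, so p-values may measure only a technical spread between samples. Since RNA came from whole cultures, fewer cells of a type and less RNA per cell cannot be told apart.

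Total RNA had been hybridised to Affymetrix Mouse Gene 1.0 ST arrays, and the values are log2 intensities after RMA, so that a difference of 1 is a change of 2-fold. The words rose and fell in 2-g v.s. 1-g are kept for genes to which limma, in a fit over the 12 arrays, gave an adjusted p under 0.05 over all 19938 genes. By this rule 251 genes rose (1.26% of all genes) and 200 fell (1.00%), and each of these 451 genes had its 3 arrays of 2-g all above or all below the 3 of 1-g. Over all genes, 6.42% had their 2-g arrays all above the 1-g arrays and 13.0% all below. The rises were larger than the falls. Of the genes that rose, 36 did so by more than 2-fold and 96 by more than 1.5-fold, against 1 and 10 of those that fell, and the median log2 fold change was 0.46 among the former and −0.33 among the latter. At FC > 1.5 with an unadjusted P under 0.05, 110 genes were up-regulated (0.552%) and 20 down-regulated (0.100%). With no limit of fold change, 3049 of the 19938 genes had an unadjusted P under 0.05. Counts of a list at that P are to be read beside this share. The median of all genes was −0.02.

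The number of calls depended on single arrays and on the fit. It was 168 without 1-g replicate 1, 178 without 2-g replicate 3, 203 without 2-g replicate 2, 235 without 1-g replicate 2, 254 without 1-g replicate 3 and 301 without 2-g replicate 1. Calls that held in each of the fits that left out 1 of the 12 arrays (leave-one-out) numbered 107 among the rises (0.537% of all genes) and 27 among the falls (0.135%). Where a call below was lost in leave-one-out, the highest adjusted p of those fits is given with its array, and other arrays may have cost the call too. With only the 6 arrays, 171 genes rose (0.858%) and 81 fell (0.406%). When the fit also held the replicate number as a blocking factor, below named the block, 640 rose (3.21%) and 870 fell (4.36%), and the 451 genes were all among them.

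**Figure D1:**
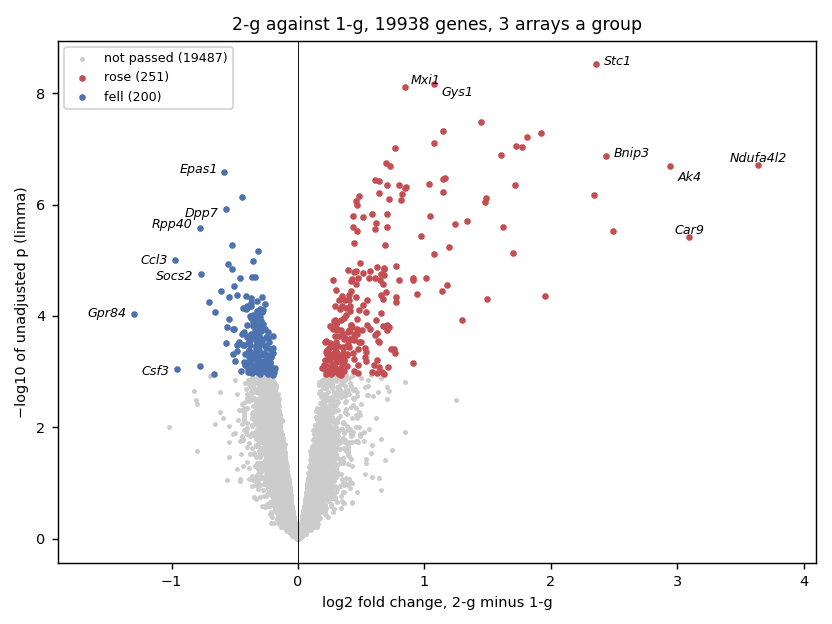
Log2 fold change of 2-g minus 1-g (x axis) against −log10 of the unadjusted p of limma (y axis) for 19938 genes, with 251 that rose in red, 200 that fell in blue and the others in grey. The right arm reaches 3.64 (Ndufa4l2), whereas the left arm ends at −1.29 (Gpr84).

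Cells sense oxygen through the hypoxia-inducible factors (HIF). While oxygen is plentiful, prolyl hydroxylases of the EGLN family modify the HIF alpha subunits, which the VHL ubiquitin ligase then marks for destruction, and when oxygen is short the alpha subunits pair with ARNT and switch on genes for glycolysis, mitochondrial adjustment, acid export, blood vessel growth and matrix folding. Osteocytes live in small lacunae of the bone matrix, and this response is known to act in them. Several genes of the feedback loop, Egln1 and Egln3 among them, are HIF targets themselves.

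The largest rise was that of Ndufa4l2, and 7 of the 15 largest rises stand in the lists of mitochondrial proteins of low oxygen and of further HIF targets. All 15 stand in some list. The lists were chosen with earlier results of these data known, so such counts and the medians of lists are descriptions and not a test. Ndufa4l2, which encodes a mitochondrial protein induced at low oxygen that lowers complex I activity, read 10.51, 11.02 and 10.44 on the 2-g arrays and 7.12, 7.14 and 6.78 on the 1-g arrays. The lowest 2-g value lay 3.29 above the highest 1-g value, and the log2 fold change (log2 FC) was 3.64 (SE 0.34, adjusted p = 0.000241), or 12.5-fold. Car9, a carbonic anhydrase of the cell surface that acidifies the surroundings of cells, read 9.21, 10.13 and 9.08 on the 2-g arrays and 6.48, 6.54 and 6.13 on the 1-g arrays, a log2 FC of 3.09 (SE 0.39, adjusted p = 0.00133). Stc1, which encodes the secreted hormone stanniocalcin 1, read 9.66, 9.74 and 9.59 on the 2-g arrays and 7.38, 7.34 and 7.21 on the 1-g arrays. The arrays of Stc1 spanned 0.15 in 2-g and 0.16 in 1-g, and with a log2 FC of 2.36 (SE 0.15, adjusted p = 5.2e-05) it had the smallest p of all genes. The other genes among the 15 largest rises were Ak4, Tmem45a, Bnip3, Pdk1, Ndrg2, Gpr35, Apln, Arrb1, Higd1a, Cox7a1, Fam162a and Selenbp1, from 2.94 down to 1.62. All 15 kept their call in leave-one-out and with only the 6 arrays.

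The 15 largest falls were smaller and less steady. Gpr84, a receptor for medium-chain fatty acids that is induced in inflamed cells, read 7.40, 6.97 and 6.97 on the 2-g arrays and 8.71, 8.50 and 8.01 on the 1-g arrays, with a log2 FC of −1.29 (SE 0.22, adjusted p = 0.012). Ccl3, a chemokine that draws macrophages, read 10.16, 9.59 and 10.11 on the 2-g arrays and 10.86, 10.95 and 10.95 on the 1-g arrays, with −0.97 (SE 0.13, adjusted p = 0.00304). Behind them came Csf3, Lipg, Rpp40, Socs2, Ppargc1a, Tfec, Cd68, Ctsk, Epas1, Dpp7, Fam20c, Nr4a1 and Tnf, from −0.96 to −0.55. Of the 15, 8 kept their call in leave-one-out and 7 did not. The adjusted p of limma rose to 0.0608 without 2-g replicate 3 for Gpr84, to 0.146 without 2-g replicate 2 for Csf3, to 0.136 without 2-g replicate 2 for Lipg, to 0.162 without 2-g replicate 2 for Tfec, to 0.0598 without 2-g replicate 3 for Cd68, to 0.0942 without 1-g replicate 2 for Fam20c and to 0.0696 without 2-g replicate 2 for Nr4a1. With only the 6 arrays, 14 of the 15 were called, Csf3 being the exception (adjusted p = 0.0663).

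**Figure D2:**
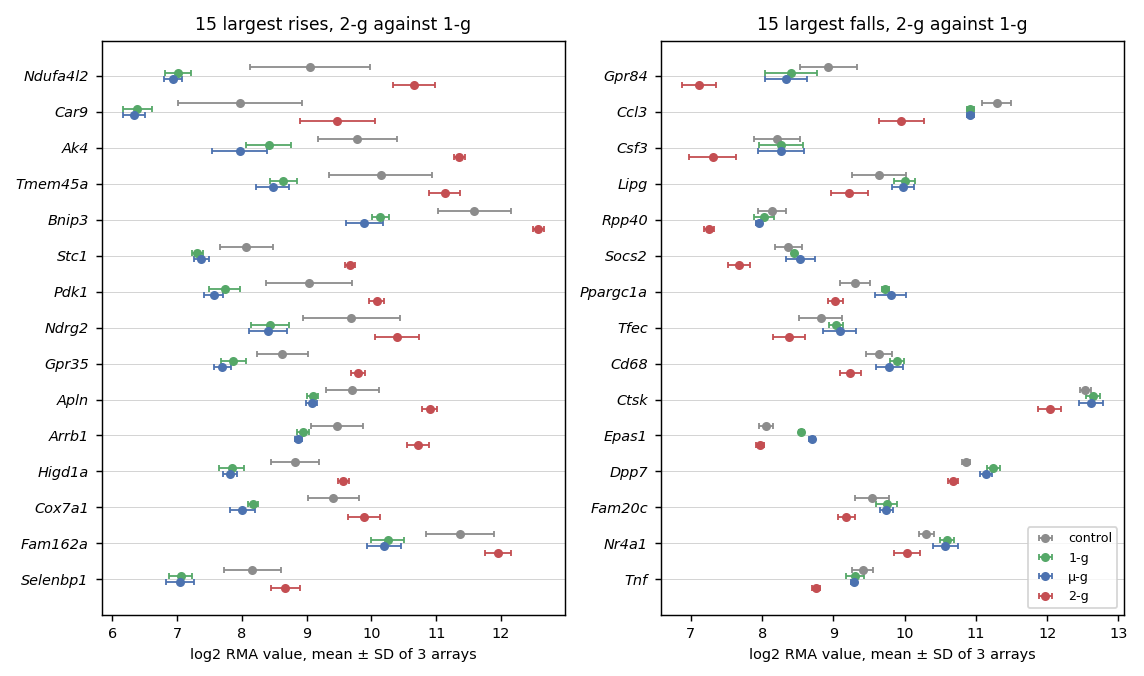
Mean log2 RMA value with its SD over 3 arrays (x axis) in control, 1-g, μ-g and 2-g for the 15 largest rises (left) and the 15 largest falls (right) of 2-g v.s. 1-g. For each gene shown the μ-g mean lies nearer to the 1-g mean than to the 2-g mean, and for all 15 rises and 11 of the 15 falls the control mean lies between 1-g and 2-g.

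Genes of the oxygen sensor itself were among the calls. Of 6 measured hydroxylases and their partner VHL, 3 rose (Egln1, Egln3 and Vhl), 0 fell and 3 did not pass. Egln1, the main prolyl hydroxylase at normal oxygen, read 11.13, 11.08 and 11.01 on the 2-g arrays and 9.47, 9.49 and 9.45 on the 1-g arrays, with a log2 FC of 1.60 (SE 0.15, adjusted p = 0.000207). Egln3, a prolyl hydroxylase that HIF induces, read 7.40, 7.75 and 7.86 on the 2-g arrays and 6.33, 6.50 and 6.45 on the 1-g arrays, with 1.24 (SE 0.15, adjusted p = 0.000904). The lowest 2-g value lay above the highest 1-g value by 1.52 for Egln1 and by 0.90 for Egln3. Vhl had a log2 FC of 0.31 (SE 0.07, adjusted p = 0.0438), a call that was lost in leave-one-out (adjusted p = 0.148 without 2-g replicate 2) and with only the 6 arrays (adjusted p = 0.14). Egln2 (0.01), the membrane-bound P4htm (0.10) and Hif1an (−0.16), which hydroxylates an asparagine of HIF, did not pass, but Hif1an fell with the block (adjusted p = 0.0455).

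Of the 5 HIF subunits, 0 rose and 1 fell. Epas1, which encodes HIF-2 alpha, read 8.03, 7.91 and 7.96 on the 2-g arrays and 8.52, 8.59 and 8.54 on the 1-g arrays, and its log2 fold change was −0.58 (SE 0.06, adjusted p = 0.000287). The gap between the groups was 0.49 and the ranges within them 0.12 and 0.06, and Epas1 kept its call in leave-one-out. Hif1a, which encodes HIF-1 alpha, read 12.52, 12.46 and 12.54 on the 2-g arrays and 12.65, 12.66 and 12.65 on the 1-g arrays. Its 2-g values were all lower too, with a log2 FC of −0.15 (SE 0.05, adjusted p = 0.173) that did not pass. Arnt (0.01), Arnt2 (−0.04) and Hif3a (−0.02) did not pass either. The alpha subunits are regulated mainly as proteins, which these arrays do not measure.

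Of 10 genes for mitochondrial proteins tied to low oxygen, 7 rose, 0 fell and 3 did not pass, with a median log2 fold change of 1.5 against −0.02 over all genes. Bnip3, a receptor for mitophagy in the outer mitochondrial membrane, read 12.57, 12.66 and 12.50 on the 2-g arrays and 10.07, 10.29 and 10.06 on the 1-g arrays, with 2.44 (SE 0.22, adjusted p = 0.000207). Ak4, the mitochondrial adenylate kinase that turns AMP over, read 11.42, 11.40 and 11.26 on the 2-g arrays and 8.62, 8.61 and 8.02 on the 1-g arrays, with 2.94 (SE 0.28, adjusted p = 0.000241). Replicate 3 of 1-g was the lowest for Ak4, and the groups did not overlap for either gene. Higd1a, which helps respiratory complexes to assemble and function, read 9.62, 9.61 and 9.47 on the 2-g arrays and 7.62, 7.93 and 7.98 on the 1-g arrays, with 1.72 (SE 0.15, adjusted p = 0.000179). Fam162a (1.70), a HIF-induced protein with a part in cell death, Mgarp (1.30), which acts in the transport of mitochondria, and Cox4i2 (0.91), the low-oxygen form of a cytochrome c oxidase subunit, rose as well. The call of Mgarp was lost in leave-one-out (adjusted p = 0.0627 without 1-g replicate 1). Bnip3l (0.20), Lonp1 (0.25) and Fundc1 (0.04) did not pass, and the first 2 of these passed with the block, which gave 9 rises.

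**Figure D3:**
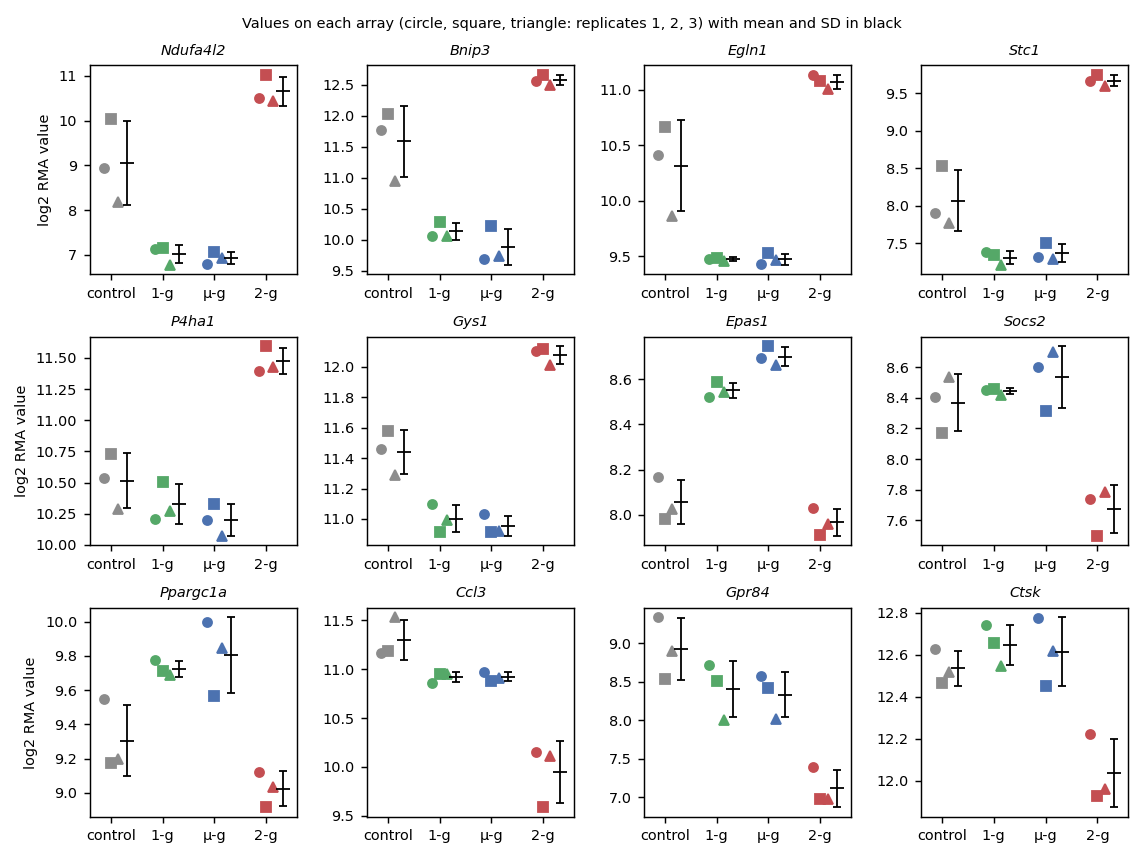
Log2 RMA value (y axis) of 12 genes on each of the 12 arrays, by group (x axis), with circles, squares and triangles for replicates 1, 2 and 3 and the mean with its SD in black. In the first 6 panels the 2-g arrays lie above the 1-g arrays, as for Bnip3 (lowest 2-g value 12.50, highest 1-g value 10.29), and in the last 6 they lie below, as for Gpr84 (highest 2-g value 7.40, lowest 1-g value 8.01).

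Of 19 further HIF targets, 13 rose, 0 fell and 6 did not pass, with a median of 0.61 (17 rose with the block). Tmem45a, which encodes a membrane protein of little known function, read 10.94, 11.39 and 11.05 on the 2-g arrays and 8.45, 8.86 and 8.59 on the 1-g arrays, with 2.49 (SE 0.30, adjusted p = 0.00106). Selenbp1, a methanethiol oxidase, had a log2 FC of 1.62 (SE 0.19, adjusted p = 0.000975), and its near-identical mouse copy Selenbp2, with which it may share signal, had 1.33. Rcor2, a corepressor that works with a histone demethylase, rose by 1.16 and Ankrd37 by 1.05. Ero1a, the oxidase that drives disulfide bonds in the endoplasmic reticulum, rose by 1.01, and Mxi1, an antagonist of MYC, by 0.84. Mxi1 read 9.56, 9.76 and 9.68 on the 2-g arrays and 8.83, 8.81 and 8.82 on the 1-g arrays, so that its 1-g arrays spanned 0.02 on the log2 scale. In the NDRG family, stress-regulated proteins of the cytoplasm of which Ndrg1 is a HIF target, 2 of 4 genes rose. They were Ndrg2 (1.95 (SE 0.31, adjusted p = 0.0077)) and Ndrg1 (0.61 (SE 0.06, adjusted p = 0.000343)), while Ndrg4 (0.22), which rose with the block (adjusted p = 0.018), and Ndrg3 (0.03) did not pass.

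HIF binds DNA at short sites with the letters ACGTG or GCGTG at their core. The promoters of 5 genes that rose are shown, with those letters in capitals on either strand, together with that of Dpp7, a gene that fell and whose match is the palindrome CACGTG, the letters of an E-box that other factors bind. Each window shown holds a match, so these windows are examples and do not give the share of genes with a match. The windows are RefSeq sequences of build GRCm38.p6 and run 5′ to 3′ along the gene from 250 bases before its start to 50 after.
Car9 (chr4:43506776-43507075, plus strand): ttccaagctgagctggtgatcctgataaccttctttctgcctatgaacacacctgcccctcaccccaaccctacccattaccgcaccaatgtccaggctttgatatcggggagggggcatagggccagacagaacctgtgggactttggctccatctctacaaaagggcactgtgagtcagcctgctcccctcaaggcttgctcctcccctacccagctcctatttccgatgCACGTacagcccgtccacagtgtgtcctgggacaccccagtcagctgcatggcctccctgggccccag
Bnip3 (chr7:138909457-138909756, minus strand): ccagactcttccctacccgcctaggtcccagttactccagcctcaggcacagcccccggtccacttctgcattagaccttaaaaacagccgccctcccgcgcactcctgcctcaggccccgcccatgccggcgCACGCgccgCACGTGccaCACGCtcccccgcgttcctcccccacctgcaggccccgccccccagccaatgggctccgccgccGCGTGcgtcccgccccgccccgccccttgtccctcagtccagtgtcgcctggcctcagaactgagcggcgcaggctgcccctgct
Higd1a (chr9:121857747-121858046, minus strand): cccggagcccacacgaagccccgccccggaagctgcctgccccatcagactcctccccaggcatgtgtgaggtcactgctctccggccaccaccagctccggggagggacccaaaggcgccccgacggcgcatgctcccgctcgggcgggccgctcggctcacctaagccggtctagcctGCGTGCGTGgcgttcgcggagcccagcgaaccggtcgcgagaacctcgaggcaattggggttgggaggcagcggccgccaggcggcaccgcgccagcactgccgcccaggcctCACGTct
Fam162a (chr16:36071512-36071811, minus strand): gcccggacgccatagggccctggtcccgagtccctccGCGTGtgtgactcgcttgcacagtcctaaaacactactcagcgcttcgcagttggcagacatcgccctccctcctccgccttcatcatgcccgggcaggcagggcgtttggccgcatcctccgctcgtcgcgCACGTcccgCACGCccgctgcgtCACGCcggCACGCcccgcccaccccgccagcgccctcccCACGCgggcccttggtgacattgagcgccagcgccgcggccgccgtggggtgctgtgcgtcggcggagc
Egln1 (chr8:124949205-124949504, minus strand): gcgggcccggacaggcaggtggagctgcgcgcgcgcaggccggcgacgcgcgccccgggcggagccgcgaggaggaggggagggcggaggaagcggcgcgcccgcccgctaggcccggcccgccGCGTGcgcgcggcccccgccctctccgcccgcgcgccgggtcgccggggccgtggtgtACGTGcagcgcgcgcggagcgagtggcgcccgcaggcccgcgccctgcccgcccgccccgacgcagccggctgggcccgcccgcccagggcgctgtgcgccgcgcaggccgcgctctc
Dpp7 (chr2:25356283-25356582, minus strand): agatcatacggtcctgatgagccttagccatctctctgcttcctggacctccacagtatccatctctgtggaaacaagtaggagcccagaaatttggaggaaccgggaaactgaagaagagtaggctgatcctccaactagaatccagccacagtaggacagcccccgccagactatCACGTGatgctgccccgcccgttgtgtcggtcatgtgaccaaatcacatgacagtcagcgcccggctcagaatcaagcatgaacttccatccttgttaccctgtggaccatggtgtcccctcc
Fam162a held 6 matches, Bnip3 5, Higd1a 3, Egln1 2 and Car9 1, which runs from −18 to −14 where the start counts as 0. In Bnip3 and in Dpp7 1 match on each strand belongs to the same palindrome. Among genes that had such a window, ACGTG on either strand stood in 46.3% of 188 that rose, 38.2% of 165 that fell, 24.4% of all 15563 and 30.7% of the 8088 whose mean value lay above the median gene. GCGTG stood in 59.0%, 61.2%, 44.4% and 58.7% of them. At least 1 of these cores stood in 76.1%, 78.2%, 55.3% and 70.1% of them, so over all calls the rises and the falls had similar shares. Among the 15 largest rises the share was 91.7% of the 12 with a window (75.0% at the first listed start). Among the 15 largest falls it was 36.4% of 11 with either choice of starts. CACGTG, which contains ACGTG, stood in 10.1% of those that rose and 22.4% of those that fell, against 9.50% of all and 12.4% of those above the median gene. At the first listed start alone, rises and falls lay closer for ACGTG, with 39.4% and 37.0% against 21.7% of all, while CACGTG stood in 8.5% and 21.2% against 8.4%. A match is a description of letters in a window and not a binding site, and no test was run on these shares.

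**Figure D4:**
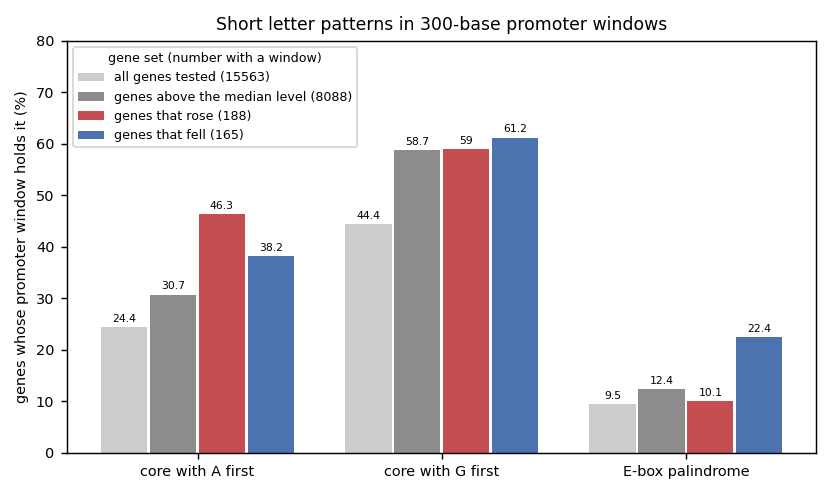
Percent of genes (y axis) whose promoter window, at any of their annotated starts, holds ACGTG (core with A first), GCGTG (core with G first) or CACGTG (E-box palindrome) on either strand, for all genes, genes above the median level, genes that rose and genes that fell. The core with A first stands in 46.3% of genes that rose, 38.2% of genes that fell and 24.4% of all genes. The palindrome stands in 10.1%, 22.4% and 9.50% of them.

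Many glycolytic enzymes rose. Of 16 measured, 9 rose, 0 fell and 7 did not pass, with a median log2 fold change of 0.46, and 15 of the 16 had a higher mean in 2-g. All 9 kept their call in leave-one-out. Aldoc, an aldolase isozyme best known from brain, read 10.27, 10.77 and 10.26 on the 2-g arrays and 8.70, 9.14 and 8.97 on the 1-g arrays, with 1.5 (SE 0.24, adjusted p = 0.00828). Pfkl, the liver form of the phosphofructokinase that commits glucose to glycolysis, read 11.98, 11.99 and 11.90 on the 2-g arrays and 10.48, 10.61 and 10.33 on the 1-g arrays, with 1.48 (SE 0.16, adjusted p = 0.000431). The 2-g arrays of Pfkl spanned 0.09, and each stood above the 1-g arrays. Eno2, the neuronal enolase, rose by 1.45 (SE 0.12). Pfkp (0.94), Pgk1 (0.85), Pgam1 (0.64), Aldoa (0.51) and Tpi1 (0.46) rose by less. Aldoa, Tpi1, Pgam1 and Pgk1, like Ldha, were among the 10 called genes with the highest mean values. Aldoa may share signal with its retrogene Aldoart1, which had 0.45 and did not pass.

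Some genes of glucose uptake and of the fate of pyruvate rose, against 1.26% of all genes. Of 14 glucose transporters and PFKFB enzymes, 1 rose and 0 fell (2 and 1 with the block). This was Slc2a1, the basal glucose transporter GLUT1, which read 13.16, 13.12 and 13.06 on the 2-g arrays and 12.52, 12.44 and 12.26 on the 1-g arrays, with 0.71 (SE 0.08, adjusted p = 0.000975). Pfkfb3, which makes the activator of phosphofructokinase, had 0.53 (SE 0.13, adjusted p = 0.0649) and did not pass, although it did with the block (adjusted p = 0.00126). Of 16 genes of pyruvate and lactate, 3 rose and 0 fell (4 and 1 with the block). Pdk1, the kinase that shuts pyruvate dehydrogenase, read 9.97, 10.19 and 10.07 on the 2-g arrays and 7.81, 7.93 and 7.47 on the 1-g arrays, with 2.34 (SE 0.25, adjusted p = 0.000421). Slc16a3, the lactate exporter MCT4, read 8.29, 8.19 and 8.12 on the 2-g arrays and 7.06, 7.33 and 6.99 on the 1-g arrays, with 1.07 (SE 0.09, adjusted p = 0.000179), and Ldha, the lactate dehydrogenase subunit that favours lactate, had 0.56 (SE 0.08, adjusted p = 0.00469). The 3 calls held in leave-one-out.

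Of 19 glycogen genes, 7 rose, 0 fell and 12 did not pass, with a median of 0.06. Gys1, the glycogen synthase of most tissues, read 12.11, 12.12 and 12.01 on the 2-g arrays and 11.10, 10.91 and 11.00 on the 1-g arrays, and its log2 FC of 1.08 (SE 0.07, adjusted p = 5.2e-05) had the lowest p after that of Stc1. Pgm1 (1.14), which interconverts glucose phosphates, Epm2a (0.91), the glycogen phosphatase laforin, and Ppp1r3c (0.55) and Ppp1r3b (0.44), which bring a phosphatase to glycogen, rose on the side of synthesis and its control. Pygl (0.81), a phosphorylase that breaks glycogen down, and Slc37a4 (0.64), the glucose 6-phosphate transporter of the endoplasmic reticulum, rose as well. The calls of Ppp1r3c and Ppp1r3b were lost in leave-one-out (adjusted p = 0.0763 without 2-g replicate 3 and 0.0903 without 1-g replicate 1).

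For genes of mitochondrial respiration the counts stand beside 1.26% of all genes that rose and 1.00% that fell. Of 17 genes of the TCA cycle, 0 rose and 0 fell by limma at adjusted p, while 6 were lower at an unadjusted P under 0.05 and 3 fell with the block. All 17 had a lower mean in 2-g, as had 60.5% of all genes, with a median of −0.11, and Idh3a (−0.30 (adjusted p = 0.132)) and Ogdh (−0.23 (adjusted p = 0.0638)) had the largest differences and passed with the block (adjusted p = 0.0275 and 0.0186). Of 49 subunits of the respiratory chain, 1 rose, 1 fell (3 with the block) and 42 had a lower mean in 2-g, with a median of −0.07. The gene that rose was Cox7a1, the heart and muscle form of a cytochrome c oxidase subunit, which read 9.85, 10.14 and 9.67 on the 2-g arrays and 8.10, 8.25 and 8.16 on the 1-g arrays, with 1.72 (SE 0.17, adjusted p = 0.000343). The gene that fell was Ndufa4, a cytochrome c oxidase subunit and paralog of Ndufa4l2, which had −0.32 (SE 0.06, adjusted p = 0.0138) and lost its call in leave-one-out (adjusted p = 0.0613 without 2-g replicate 2). Of 11 genes that drive mitochondrial biogenesis, 0 rose and 1 fell (2 with the block). Ppargc1a, the coactivator PGC-1 alpha, read 9.12, 8.92 and 9.03 on the 2-g arrays and 9.78, 9.71 and 9.69 on the 1-g arrays, with −0.70 (SE 0.11, adjusted p = 0.0088), and kept its call in leave-one-out.

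**Figure D5:**
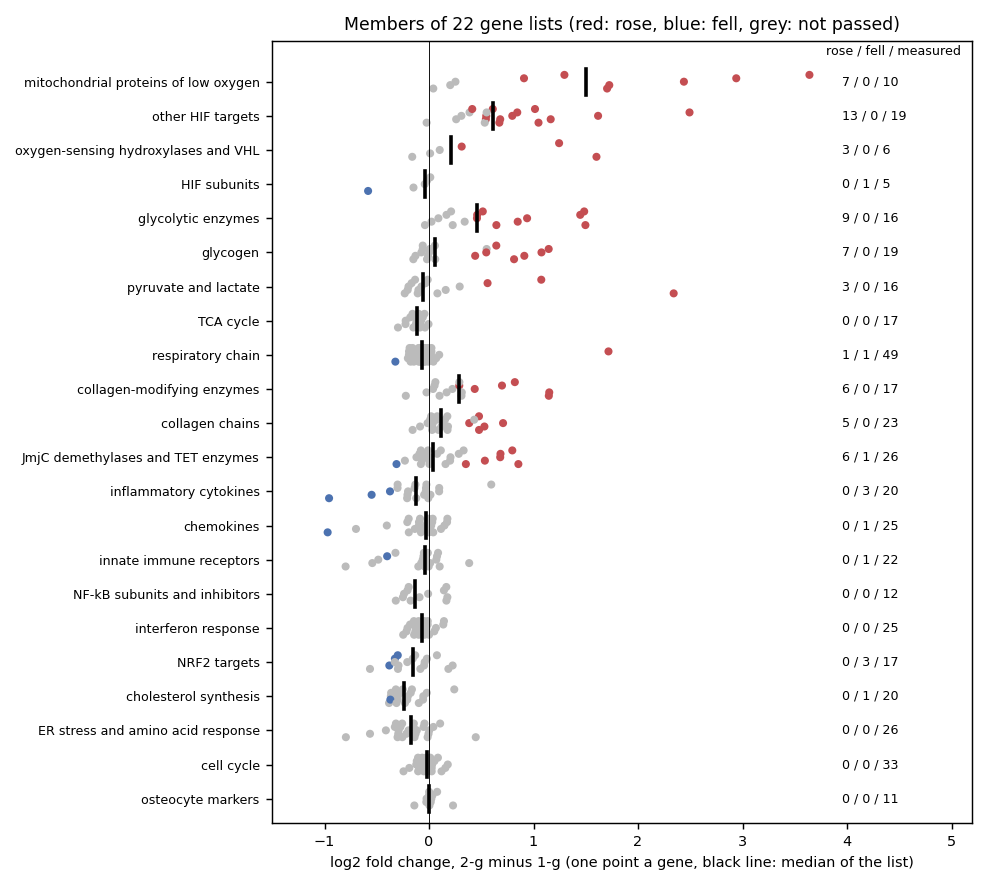
Log2 fold change of 2-g minus 1-g (x axis) for each measured member of 22 gene lists (rows), with the median of a list as a black line, members that rose in red, those that fell in blue and the others in grey. The mitochondrial proteins of low oxygen (median 1.5), further HIF targets (0.61) and glycolytic enzymes (0.46) lie to the right, the TCA cycle (−0.11) and cholesterol synthesis (−0.24) to the left, and the osteocyte markers near 0.

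Enzymes that modify collagen, and some collagen chains, rose. Of 17 such enzymes, which hydroxylate, fold or crosslink collagen, 6 rose, 0 fell and 11 did not pass, with a median of 0.29 (9 rose with the block). P4ha1 and P4ha2, the catalytic subunits of the collagen prolyl hydroxylase, had log2 FC of 1.15 (SE 0.11, adjusted p = 0.000341) and 1.15 (SE 0.09, adjusted p = 0.000174). P4ha1 read 11.40, 11.59 and 11.43 on the 2-g arrays and 10.20, 10.51 and 10.27 on the 1-g arrays. P4ha2 read 10.01, 9.99 and 10.06 on the 2-g arrays and 8.74, 8.91 and 8.97 on the 1-g arrays. The groups were apart by 0.89 for P4ha1 and by 1.02 for P4ha2. Plod2 (0.82) and Plod1 (0.70), the lysyl hydroxylases, P3h3 (0.44) and P4hb (0.29), the shared subunit of the prolyl hydroxylase, rose too, and P4hb lost its call in leave-one-out (adjusted p = 0.12 without 2-g replicate 3). Of 23 collagen chains, 5 rose and 0 fell, with a median of 0.12. Col3a1 had 0.71 (SE 0.16, adjusted p = 0.0414), Col6a3 0.53 (SE 0.11, adjusted p = 0.033), Col6a2 0.48 (SE 0.11, adjusted p = 0.0471), Col6a1 0.48 (SE 0.10, adjusted p = 0.0276) and Col1a1 0.38 (SE 0.08, adjusted p = 0.0258). Each of these 5 calls was lost in a fit that left out 1 array, with adjusted p as high as 0.154 without 2-g replicate 3 for Col3a1, 0.119 without 2-g replicate 2 for Col6a3, 0.159 without 1-g replicate 1 for Col6a2, 0.106 without 2-g replicate 2 for Col6a1 and 0.107 without 2-g replicate 3 for Col1a1. Of 24 matrix proteases and TIMPs, 2 rose and 0 fell (7 and 1 with the block). These were Adamts5 (0.61), an aggrecanase, and Timp3 (0.54), an inhibitor of such proteases, and both were lost without 2-g replicate 3 (adjusted p = 0.0922 and 0.149). Mmp13, a collagenase of bone, had 0.70 (SE 0.19, adjusted p = 0.0846) and did not pass, although it did with the block (adjusted p = 0.00608).

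The JmjC demethylases and TET enzymes use oxygen as the prolyl hydroxylases do, and some of them are HIF targets. Of 26 measured, 6 rose, 1 fell and 19 did not pass (9 rose and 2 fell with the block). Kdm4b (0.85 (SE 0.09, adjusted p = 0.000352)) and Kdm3a (0.80 (SE 0.12, adjusted p = 0.00469)), which remove methyl groups from histone H3, had the largest rises. Kdm4b read 9.60, 9.66 and 9.49 on the 2-g arrays and 8.64, 8.81 and 8.74 on the 1-g arrays. Tet2 (0.68), which oxidises 5-methylcytosine, Jmjd6 (0.68), Kdm5b (0.53) and Kdm2a (0.35) rose by less, and the last 2 lost their call without 2-g replicate 3 (adjusted p = 0.0608 and 0.117). The gene that fell was Kdm8 (−0.31), whose call was lost without the same array (adjusted p = 0.0949). Alkbh5, an RNA demethylase of the same enzyme superfamily that was in no list, read 11.50, 11.48 and 11.48 on the 2-g arrays and 11.00, 11.00 and 11.00 on the 1-g arrays, a log2 FC of 0.49 (SE 0.05, adjusted p = 0.000428) on arrays that spanned 0.02 in 2-g and less in 1-g.

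Among 18 carbonic anhydrases and acid transporters, 1 rose and 2 fell. The rise was that of Car9. Car12, another cell surface carbonic anhydrase and HIF target, read 8.09, 8.13 and 7.63 on the 2-g arrays and 6.99, 7.24 and 7.09 on the 1-g arrays. Its 3 arrays of 2-g lay above those of 1-g, but the log2 FC of 0.84 (SE 0.21, adjusted p = 0.0586) did not pass in the fit of 12 arrays, whereas it did with the block (adjusted p = 0.0285) and with only the 6 arrays (adjusted p = 0.0311). Car13 (−0.32) and Car14 (−0.30) fell, and both calls were lost without 2-g replicate 3 (adjusted p = 0.0608 and 0.0677).

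Of 17 secreted vascular and stanniocalcin peptides, 5 rose and 0 fell (9 rose with the block), with a median of 0.24. Besides Stc1 these were Apln, the ligand of the apelin receptor, Adm, which encodes the vessel-widening peptide adrenomedullin, Stc2, and Ang2, a mouse angiogenin ribonuclease with close paralogs that may share its signal. Apln read 10.86, 11.03 and 10.81 on the 2-g arrays and 9.12, 9.16 and 8.99 on the 1-g arrays, with 1.81 (SE 0.15, adjusted p = 0.000177). Adm read 10.33, 10.55 and 10.25 on the 2-g arrays and 8.79, 9.00 and 8.90 on the 1-g arrays, with 1.48 (SE 0.16, adjusted p = 0.000459). The lowest 2-g value lay 1.65 above the highest 1-g value for Apln and 1.25 above it for Adm. Stc2 had 0.68 (SE 0.10, adjusted p = 0.00455) and Ang2 0.64 (SE 0.14, adjusted p = 0.0417), the latter lost in leave-one-out (adjusted p = 0.148 without 1-g replicate 1) and with only the 6 arrays (adjusted p = 0.0508). Of 8 genes for Gpr35, Gpr84 and the arrestins and kinases that silence such receptors, 2 rose and 1 fell. Gpr35, a receptor that binds kynurenic acid, read 9.91, 9.76 and 9.70 on the 2-g arrays and 8.02, 7.93 and 7.66 on the 1-g arrays, with 1.92 (SE 0.16, adjusted p = 0.000174), and Arrb1, which encodes beta-arrestin 1, read 10.71, 10.90 and 10.55 on the 2-g arrays and 8.83, 9.00 and 9.00 on the 1-g arrays, with 1.77 (SE 0.16, adjusted p = 0.000179). Gpr35 and Gpr84 thus had opposite signs in the same contrast.

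Some genes of inflammation fell, and their counts stand beside the 1.00% of all genes that fell. Of 20 inflammatory cytokines, 0 rose and 3 fell (1 and 4 with the block), with log2 fold changes from −0.957 to 0.595. Csf3, which encodes the neutrophil growth factor G-CSF, read 7.18, 7.05 and 7.68 on the 2-g arrays and 8.14, 8.04 and 8.61 on the 1-g arrays, and its same-numbered arrays differed by −0.96, −0.98 and −0.93. Its log2 fold change was −0.96 (SE 0.22, adjusted p = 0.0438), with an adjusted p of 5.61e-06 with the block. Tnf, the tumour necrosis factor, read 8.81, 8.74 and 8.71 on the 2-g arrays and 9.36, 9.38 and 9.16 on the 1-g arrays, with −0.55 (SE 0.08, adjusted p = 0.00344). Il1rn, which encodes the antagonist of the interleukin 1 receptor, had −0.37 (SE 0.08, adjusted p = 0.0305) and lost its call in leave-one-out (adjusted p = 0.106 without 1-g replicate 1). Of 25 chemokines, 0 rose and 1 fell, the Ccl3 described above, and 6 fell with the block. Cxcl9, a chemokine for T cells, had −0.70 (SE 0.17, adjusted p = 0.0518) and did not pass, although it did with the block (adjusted p = 0.00985). Of 22 innate immune receptors, 0 rose and 1 fell (1 and 5 with the block). It was Tlr2, a receptor for bacterial lipoproteins, with −0.40 (SE 0.08, adjusted p = 0.0211), lost in leave-one-out (adjusted p = 0.09 without 2-g replicate 3). Of 12 NF-kB subunits and inhibitors, 0 rose and 0 fell by limma, with 3 higher and 6 lower at an unadjusted P under 0.05 and 3 falls with the block. Of 25 interferon-response genes 0 rose and 0 fell by limma, with 2 lower at an unadjusted P under 0.05 and 1 fall with the block. Of 15 genes of nitric oxide, arginine and prostaglandins, 1 rose and 0 fell (2 and 1 with the block). With only the 6 arrays, 0 of this list rose and 1 fell. Arg2 had the largest difference of the list, −0.82, and did not pass. Its same-numbered arrays differed by −0.93, −0.71 and −0.82, and the groups were apart by 0.44. Nos2, the inducible nitric oxide synthase, had 0.32 (SE 0.07, adjusted p = 0.0449), a call that was lost in leave-one-out (adjusted p = 0.172 without 2-g replicate 3) and with only the 6 arrays (adjusted p = 0.105).

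Of the 8 SOCS inhibitors, which switch off cytokine receptors, 0 rose and 1 fell. Socs2, known as a brake on growth hormone signalling, read 7.74, 7.50 and 7.79 on the 2-g arrays and 8.45, 8.45 and 8.42 on the 1-g arrays, with −0.77 (SE 0.11, adjusted p = 0.0044). The 1-g arrays spanned 0.04 and the 2-g arrays 0.29, and the call held in leave-one-out. Socs3 (0.24) and the other members, from 0.08 for Socs1 down to −0.16 for Socs7, did not pass.

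Some genes fell that share no list. Rpp40, a subunit of ribonuclease P, read 7.32, 7.25 and 7.18 on the 2-g arrays and 8.10, 8.11 and 7.87 on the 1-g arrays, with −0.78 (SE 0.09, adjusted p = 0.000975). Dpp7, a lysosomal peptidase, read 10.66, 10.75 and 10.62 on the 2-g arrays and 11.25, 11.33 and 11.15 on the 1-g arrays, with −0.57 (SE 0.06, adjusted p = 0.000593). Both kept their call in leave-one-out, as did Zhx2, a transcription factor that is a VHL substrate, with −0.44 (SE 0.05, adjusted p = 0.000431). Lipg (−0.78), a secreted phospholipase, Tfec (−0.66), a transcription factor of the MiT family, and Fam20c (−0.57), the kinase that phosphorylates secreted proteins of bone matrix, fell with the losses of call given above. Of 17 NRF2 targets, which answer to oxidants, 0 rose and 3 fell (1 and 6 with the block). Txnrd1 (−0.38), Srxn1 (−0.33) and Gclm (−0.30) each lost their call in leave-one-out (adjusted p = 0.057 without 2-g replicate 2, 0.0697 without 1-g replicate 1 and 0.0572 without 2-g replicate 3). Of 14 genes of iron handling, 2 fell, Slc11a2 (−0.26), the ferrous iron importer DMT1, and Ncoa4 (−0.31), the receptor for the breakdown of ferritin, and Ncoa4 lost its call in leave-one-out (adjusted p = 0.095 without 1-g replicate 1).

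Cholesterol synthesis and the ER stress response gave more calls with the block than in the fit of 12 arrays, as did all genes (1510 against 451). Of 20 genes of cholesterol synthesis, 19 had a lower mean in 2-g (60.5% of all genes had), with a median of −0.24, but 1 fell at adjusted p, and with the block 10 fell and 1 rose. That 1 gene was Hsd17b7 (−0.37 (SE 0.08, adjusted p = 0.0444)), a sterol reductase, which was lost in leave-one-out (adjusted p = 0.149 without 2-g replicate 2). Of 26 genes of ER stress and the amino acid response, 0 rose and 0 fell by limma, 1 was higher and 9 were lower at an unadjusted P under 0.05, and 1 rose and 13 fell with the block, with a median of −0.17. Slc7a3, a carrier of arginine and lysine, read 9.98, 8.98 and 9.81 on the 2-g arrays and 10.70, 10.02 and 10.42 on the 1-g arrays. Each 2-g array lay below each 1-g array, but by a gap of only 0.05 beside ranges of 1.00 in 2-g and 0.68 in 1-g, and its log2 FC of −0.80 (SE 0.31, adjusted p = 0.243) had an adjusted p of 0.000654 with the block.

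Calls in the clock, the MYC network and lists of other regulators numbered from 1 to 3 each. Of 17 clock genes, 3 rose and 0 fell (7 and 1 with the block), with a median of 0.22. Ciart, a repressor of the clock, read 10.78, 10.68 and 10.52 on the 2-g arrays and 9.85, 9.40 and 9.52 on the 1-g arrays, with 1.07 (SE 0.14, adjusted p = 0.00236), and Per1 (0.35) and Cry2 (0.29) rose by less, the last of them lost in leave-one-out (adjusted p = 0.139 without 2-g replicate 2). In the MYC network of 13 genes, Mxi1 rose and Max, the partner of MYC, fell (−0.19 (SE 0.04, adjusted p = 0.047)), with Max lost in leave-one-out (adjusted p = 0.13 without 2-g replicate 1). With the block 3 genes of the network rose and 1 fell. Id2, an inhibitor of basic helix-loop-helix factors, was the 1 gene of 30 of the BMP and TGF-beta list that rose (0.66 (SE 0.10, adjusted p = 0.0077)), and Cryab, a small heat shock protein, the 1 of 14 heat shock genes (0.71 (SE 0.13, adjusted p = 0.0162), lost in leave-one-out at adjusted p = 0.0741 without 2-g replicate 3). No gene of either list fell in the fit of 12 arrays, whereas with the block 2 of the BMP and TGF-beta list rose and 4 fell, and 1 heat shock gene rose and 4 fell. Of 19 immediate early genes, Fosl1 rose (0.20) and Nr4a1 fell (−0.56), and neither call held in leave-one-out (adjusted p = 0.153 without 2-g replicate 3 for Fosl1), while 3 rose and 2 fell with the block. Of 23 autophagy genes, Ulk1 (0.40), the kinase that starts the process, rose, and Atg7 (−0.32) and Map1lc3b (−0.24) fell, the falls being lost without 2-g replicate 3 (adjusted p = 0.163 and 0.0765), and 5 fell with the block. Of 14 S100 proteins, which bind calcium, 1 rose and 0 fell, S100a3 with 0.71 (SE 0.13, adjusted p = 0.0179), lost in leave-one-out (adjusted p = 0.0738 without 1-g replicate 2), and 3 rose and 2 fell with the block. Sik1, a salt-inducible kinase, and Eid1, an inhibitor of acetyltransferases, were in no list and rose by 0.80 (SE 0.08) and 0.73 (SE 0.07).

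Calls among genes tied to mechanical load are to be read beside the 1.26% of all genes that rose and the 1.00% that fell. Of 18 genes of YAP, TAZ and their targets, 1 rose and 1 fell (4 and 1 with the block). Ccn2, which encodes the matrix protein CTGF, read 11.76, 11.66 and 11.85 on the 2-g arrays and 10.98, 11.28 and 11.05 on the 1-g arrays, with 0.65 (SE 0.10, adjusted p = 0.00469), while Tead4, a partner of YAP, had −0.40 (SE 0.08, adjusted p = 0.0305) and was lost in leave-one-out (adjusted p = 0.123 without 2-g replicate 3). Of 22 genes of the contractile cytoskeleton, 1 rose, the tropomyosin Tpm2 (0.46 (SE 0.07, adjusted p = 0.00796)), and with the block 2 rose and 1 fell. Of 17 connexins, pannexins and mechanosensitive channels, 17 integrin subunits and 28 genes of the Wnt pathway, 0 rose and 0 fell by limma, while 6, 3 and 6 genes passed at an unadjusted P under 0.05 and 2, 0 and 1 with the block. Among the larger differences in them were those of Trpv4 (−0.24 (adjusted p = 0.134)), a calcium channel, Itgav (0.22 (adjusted p = 0.286)) and Dkk3 (0.44 (adjusted p = 0.168)), which passed with the block (adjusted p = 0.00854). Of 33 cell cycle genes and 19 p53 targets, 0 rose and 0 fell by limma, with 1 and 4 lower at an unadjusted P under 0.05 and 2 and 3 falls with the block. Of 24 genes of the BCL2 family and caspases, Casp6 rose (0.53 (SE 0.11, adjusted p = 0.0268)), a call lost in leave-one-out (adjusted p = 0.0995 without 2-g replicate 2), and with the block 2 rose and 2 fell.

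Of 11 markers of osteocytes, the labelled cell type, 0 rose and 0 fell by limma, with 1 higher at an unadjusted P under 0.05 and 1 rise with the block (Gja1). Their mean log2 value lay between 8.43 and 8.47 on the 2-g arrays and between 8.40 and 8.45 on the 1-g arrays. Pdpn, Gja1 and Capg averaged 12.2, 12.1 and 12.6 over the 12 arrays, whereas Dmp1, Mepe and Phex, which mark osteocytes in bone, averaged 5.63, 5.11 and 5.43 on a scale that runs from 4.51 to 14.5. The other 5 markers averaged between 6.50 (Dkk1) and 10.7 (Cd44). Among 8 osteoblast markers, Col1a1 rose. Of the other cell types, 1 of 12 macrophage markers (Cd68), 1 of 9 osteoclast markers (Ctsk) and 1 of 8 adipocyte markers (Pparg) fell, and 1 of 7 chondrocyte markers (Sox9) rose. Ctsk, which encodes the collagen-degrading protease cathepsin K, read 12.22, 11.93 and 11.96 on the 2-g arrays and 12.74, 12.65 and 12.55 on the 1-g arrays, with −0.61 (SE 0.10, adjusted p = 0.00672). It was also the 1 gene that fell among 11 regulators of osteoclasts and bone resorption, of which 0 rose (1 rose and 2 fell with the block). Pparg had −0.52 (SE 0.07, adjusted p = 0.00382), Cd68 −0.66 (SE 0.11, adjusted p = 0.0116) and Sox9 0.37 (SE 0.08, adjusted p = 0.035), with Sox9 lost in leave-one-out (adjusted p = 0.126 without 2-g replicate 2). Levels within each of these lists were uneven. The means over the 12 arrays of macrophage markers ran from 5.45 (Mrc1) to 9.64 (Cd68), with Adgre1 at 5.46, Ptprc at 5.68 and Cd14 at 9.05. Those of osteoclast markers ran from 5.49 (Atp6v0d2) to 12.5 (Ctsk), with Calcr at 5.66, Nfatc1 at 8.46 and Mmp9 at 8.74, and those of adipocyte markers from 5.65 (Adipoq) to 10.7 (Fabp4). The mean of the macrophage list ran from 6.57 to 6.62 on the 2-g arrays and from 6.57 to 6.71 on the 1-g arrays, which overlapped, that of the osteoclast list from 7.23 to 7.32 and from 7.37 to 7.41, and that of the adipocyte list from 7.55 to 7.59 and from 7.61 to 7.68. In the same order, the osteoblast list ran from 8.25 to 8.27 and from 8.15 to 8.19. The chondrocyte list ran from 7.38 to 7.39 and from 7.27 to 7.35. The mast cell and granule list ran from 5.56 to 5.66 and from 5.68 to 5.73. The means of the endothelial and muscle lists overlapped. Of 8 endothelial, 15 mast cell and granule and 9 muscle markers 0 rose and 0 fell by limma, with 1, 2 and 0 lower at an unadjusted P under 0.05 and 0, 2 and 0 falls with the block. The part of other cell types in the falls of Cd68, Ctsk and Pparg was not tested.

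The other groups place these differences. Beside 2-g v.s. 1-g, limma called 574 genes in 2-g v.s. μ-g (2.88%), 620 in 2-g v.s. control (3.11%), 64 in 1-g v.s. control (0.321%) and 0 in μ-g v.s. 1-g (0.00%). In μ-g v.s. 1-g, 460 of 19938 genes passed at an unadjusted P under 0.05. In that contrast 0 were called with the block or with only the 6 arrays. With only the 6 arrays of a contrast, limma called 301 genes in 2-g v.s. μ-g, 151 in 2-g v.s. control and 0 in 1-g v.s. control. With the block the counts were 1831, 1870 and 352, in the same order. The adjusted p below are those of the fit of 12 arrays. These contrasts share arrays, so their values are given side by side. Bnip3 averaged 12.58 ± 0.08 in 2-g, 10.14 ± 0.13 in 1-g, 9.89 ± 0.29 in μ-g and 11.59 ± 0.56 in control (SD, n = 3), with 2.69 (adjusted p = 8.4e-05) in 2-g v.s. μ-g, 0.99 (adjusted p = 0.0338) in 2-g v.s. control and −1.45 (adjusted p = 0.0293) in 1-g v.s. control. The control arrays of Bnip3 lay between the 2-g and 1-g arrays. P4ha1 averaged 11.47 ± 0.11 in 2-g, 10.33 ± 0.16 in 1-g, 10.20 ± 0.13 in μ-g and 10.52 ± 0.22 in control, with 0.96 (adjusted p = 0.00253) in 2-g v.s. control and −0.19 (adjusted p = 0.608) in 1-g v.s. control. Cox7a1 averaged 9.89 ± 0.24 in 2-g, 8.17 ± 0.08 in 1-g, 8.01 ± 0.19 in μ-g and 9.41 ± 0.40 in control, with 0.47 (adjusted p = 0.176) and −1.24 (adjusted p = 0.0272) in these contrasts. Epas1 averaged 7.97 ± 0.06 in 2-g, 8.55 ± 0.03 in 1-g, 8.70 ± 0.04 in μ-g and 8.06 ± 0.10 in control, with −0.09 (adjusted p = 0.478) and 0.49 (adjusted p = 0.0105), and its 2-g mean lay close to that of control. Socs2 averaged 7.67 ± 0.15 in 2-g, 8.44 ± 0.02 in 1-g, 8.54 ± 0.20 in μ-g and 8.37 ± 0.19 in control, with −0.69 (adjusted p = 0.0085) and 0.07 (adjusted p = 0.895). Ccl3 averaged 9.95 ± 0.32 in 2-g, 10.92 ± 0.05 in 1-g, 10.92 ± 0.05 in μ-g and 11.29 ± 0.20 in control, with −1.34 (adjusted p = 0.00161) and −0.37 (adjusted p = 0.314). For Socs2 and Ccl3 the 2-g group stood below the other 3 groups.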

How the data were processed

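The series holds 12 arrays (Affymetrix Mouse Gene 1.0 ST) of MLO-Y4 RNA, 3 for each of μ-g, 1-g, 2-g and control. The deposited values are log2 expression after RMA by the authors, for 28856 transcript clusters. The version of RMA and the annotation behind it are not given in the sources used here, and the raw intensities were not used. Array medians ran from 7.04 to 7.12, Pearson's r between arrays across clusters, which are not independent replicates, from 0.996 to 0.998 within 2-g and 1-g and from 0.995 to 0.997 between them, and no 2 arrays held identical values. The number of arrays limits the precision.

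Names came from the platform annotation, updated by gene identifier through a RefSeq table. Of the clusters, 21789 carry 1 symbol, 1621 several and 5446 none or no entry, and 91 identifiers had no match. Each gene is represented by 1 cluster, which for 999 of the 19938 genes meant choosing that of the highest overall mean. Gapdh and other genes that lack a cluster of their own are not analysed here.

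Group means were estimated for every cluster by limma (version 3.58.1, under R 4.3.3), with 8 residual and 3.90 prior degrees of freedom after eBayes. The contrast was 2-g minus 1-g, and p-values were adjusted after Benjamini and Hochberg over the 19938 genes. No exact test was run, since 3 arrays against 3 allow no two-sided p below 0.1. The methods of the study give limits of fold change and P for other contrasts and do not say whether P was adjusted. Deviations from the group means correlated across genes at 0.371, 0.364 and 0.283 between 2-g and 1-g arrays of the same replicate number and at −0.305 to −0.0496 between those of other numbers. Deviations cancel within a group, so the negative values follow in part from the positive ones. The main fit had no block. In the alternative fit with a block, same-numbered arrays were taken as pairs, a pairing that comes from these values and not from the labels. Its adjusted p therefore rest on a choice made from the same arrays. It is reported beside a result only if the call, or a count by over 1.5 times, differs.

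Named are the 15 largest rises and 15 largest falls among called genes whose groups do not overlap, all members of the lists of HIF subunits, oxygen-sensing hydroxylases, mitochondrial proteins of low oxygen, SOCS inhibitors and the NDRG family, in each other list up to 8 called members by size or, with fewer than 2 calls, the 2 largest differences, the genes the study checked by real-time PCR together with Pdk1, and called genes with the highest mean or, outside the lists, the smallest p. Members named by their level alone, Selenbp2, Aldoart1, the markers at low values and the microRNA genes were chosen after their values were seen. The comparison and the 55 lists (898 genes measured) were chosen with earlier results of these data known. Lists are described by counts and medians without a set test. Promoter windows and mature microRNAs are those of RefSeq, build GRCm38.p6. Alternatives were the 6 arrays alone, the block, genes above the median level, centred arrays, quantile normalization, an intensity trend with a robust prior, the mean of clusters, all clusters, a t-test gene by gene, leaving out each array and, added after seeing the data, a prior from named genes.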

Additional observations from a re-analysis of the deposited data

How the results depend on the processing

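None of the 124 named genes that were called changed sign under an alternative, and 5 of the 65 uncalled ones did, with differences of at most 0.04. Against 451 calls, the fit with only the 6 arrays gave 252 (81 falls), of which 227 were among the 451, genes above the median level alone 702 (375 falls, 416 of the 702 shared) and a t-test gene by gene, adjusted over all genes, 8 (5 rises and 3 falls). With the replicate number as a block the count was 1510, with 640 rises and 870 falls. The block cost none of the 451 calls, and the cause of the added calls was not tested. With the block and only the 6 arrays the count was 655. Leave-one-out fits gave from 168 to 461 calls, from 122 to 253 rises and from 46 to 208 falls, with the lowest counts without 1-g replicate 1 and the highest without μ-g replicate 2, and falls at FC > 1.5 and P under 0.05 ran from 14 without 2-g replicate 2 to 34 without 2-g replicate 1, against 20. The split of calls was 298 rises to 173 falls with quantile normalization and 240 to 166 with centred arrays. Centring, quantile normalization, an intensity trend with a robust prior, the mean of clusters, all clusters and the prior from named genes, the last chosen after seeing the data, gave from 406 to 499 calls. With 3 arrays in each group, the falls, whose median was −0.33 on the log2 scale, depended most on single arrays, with 27 of 200 held in each leave-one-out fit against 107 of 251 rises. Genes of low level, such as Dmp1, have values near the lower end of the scale, where a difference may be understated.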

Other observations

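Some genes that fell in 2-g v.s. 1-g belong to groups that were not among the lists above. The lists used here were drawn up after the falls had been seen, so their counts describe these arrays and have no test. Of 87 measured factors of ribosome biogenesis, which build ribosomes in the nucleolus, 25 fell, 0 rose and 62 did not pass, and 84 had a lower mean in 2-g (60.5% of all genes had), with a median log2 fold change of −0.26 against −0.02 over all genes (1.00% of all genes fell). Rrp9, a protein of the U3 ribonucleoprotein, fell by 0.48, Pno1, which helps to mature the small subunit, by 0.44, Wdr12, which acts on the large subunit, by 0.42, and Tcof1, which supports ribosomal RNA synthesis, by 0.41, each on the log2 scale. Of these 25 falls, 2 (Wdr18 and Mak16) held in each leave-one-out fit and 9 with only the 6 arrays, while 53 genes of the list fell with the block. Of 55 measured cytosolic ribosomal proteins, which are the building blocks of the ribosome itself, 0 rose and 0 fell by limma, 0 passed with the block and 0 at an unadjusted P under 0.05, and their median was 0.03. Whether the lists differed was not tested.

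Of 57 measured lysosomal enzymes and membrane proteins, 9 fell, 0 rose and 48 did not pass, with a median of −0.10 (20 fell and 1 rose with the block). The 9 genes were Cd68, Ctsk, Dpp7, Gla, Neu1, Ostm1, Cln3, Creg1 and Gusb, from −0.66 to −0.26. Dpp7 and Ctsk held in each leave-one-out fit. Of 21 measured subunits of the V-ATPase, the proton pump that acidifies lysosomes, 6 fell and 0 rose (11 fell with the block), with a median of −0.19. Atp6v1c1 had −0.39 (SE 0.08, adjusted p = 0.0206) and Atp6v1b2 −0.37 (SE 0.06, adjusted p = 0.00796), and of the 6 Atp6v1b2 alone held in each leave-one-out fit. Tfec was the 1 of 4 MiT factors, the family that includes regulators of lysosomal genes, to fall. Cd68 and Ctsk also stand among the macrophage and osteoclast markers above.

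Of 296 genes for microRNA precursors with a cluster of their own, 2 rose and 0 fell by limma, with 20 higher and 6 lower at an unadjusted P under 0.05 and with 8 rises and 2 falls with the block. Over all genes, 3049 of 19938 had an unadjusted P under 0.05. Mir99a had 0.43 (SE 0.09, adjusted p = 0.0305) and Mir423 0.26 (SE 0.06, adjusted p = 0.0493), and both were lost in leave-one-out (adjusted p = 0.0968 without 2-g replicate 3 and 0.16 without 1-g replicate 2). The host transcripts Mir99ahg and Mir100hg had 0.51 (SE 0.07, adjusted p = 0.00433) and 0.57 (SE 0.11, adjusted p = 0.0177), the former held in leave-one-out and the latter lost (adjusted p = 0.0768 without 1-g replicate 1). Mir100 had 0.17 (SE 0.07, adjusted p = 0.233) and did not pass. The mature products of Mir99a and Mir100, which the arrays do not measure apart from their precursors, share the seed at bases 2 to 8, in capitals here (RefSeq, GRCm38.p6).
miR-99a-5p (chr16:77598940-77598961, plus strand): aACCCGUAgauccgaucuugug
miR-100-5p (chr9:41531437-41531458, plus strand): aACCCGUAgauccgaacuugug
Mir210, whose mature product is the best known microRNA of low oxygen, read 8.89, 9.16 and 9.09 on the 2-g arrays and 9.15, 8.90 and 8.90 on the 1-g arrays, which overlapped, with 0.06 (SE 0.08, adjusted p = 0.808).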
